A study of Homo sapiens with 12 samples.

Results

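The data cover 9 genes of the extrinsic, or death receptor, route to apoptosis: the receptors TNFRSF10A, TNFRSF10B, TNFRSF10D and FAS, the ligand TNFSF10, the signalling proteins FADD, CASP8 and CFLAR, and the inhibitor XIAP. They were named as a list with earlier results of these data known, and were matched by Ensembl ID to 9 of the 60669 genes in the count table. RNA-seq was performed on 6 established human cell lines, described by the study as ovarian cancer lines. Each was treated with 8 µM quinacrine (QC), an antimalarial drug, for 6 h or with vehicle (buffer) in parallel. HeyA8, SKOV3 and OV2008 are the chemosensitive lines and HeyA8_MDR, SKOV3_TR and OV2008_C13 are their chemoresistant partners, so that the 4 groups (sensitive vehicle, sensitive QC, resistant vehicle and resistant QC) held 3 lines each and the lines fell into 3 isogenic families. Each resistant line is a single derivative, the drug used for selection differed between families, and no line had replicate libraries, so the lines of a group stood as its replicates.

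Death receptors carry a signal from outside the cell to the caspases. A ligand such as TRAIL, the product of TNFSF10, gathers its receptors at the membrane, the adaptor FADD binds them, and FADD brings in the initiator protease caspase-8, which starts the cascade. CFLAR, also called c-FLIP, joins the same complex and restrains caspase-8, while XIAP blocks the caspases further down. TNFRSF10A (DR4) and TNFRSF10B (DR5) pass the TRAIL signal on, whereas TNFRSF10D (DcR2) binds TRAIL without a complete death domain and is known as a decoy. TNFRSF10B and FAS are known targets of p53, and TNFRSF10B is also known as a target of the stress factor DDIT3.

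Libraries held between 17782556 and 30585059 counts, and 18720 genes passed the filter on low counts, all 9 genes among them. The epithelial keratins KRT8 and KRT18 were high in all 12 libraries, the leucocyte genes PTPRC and CD14 stayed at or under 0.529 CPM (TMM-normalised counts per library size, the unit of level used here), and COL1A1, a fibroblast collagen, was present at 0.727 to 39.4 CPM. In both HeyA8 lines EPCAM was at 0 to 2.92 CPM and CDH1 at 0 to 0.222 CPM, and EPCAM was at 3.07 and 4.08 CPM in SKOV3_TR. The endothelial gene VWF ranged from 0 to 5.29 CPM. The ovarian lineage gene PAX8 was at 7.56 to 24.8 CPM in the OV2008 family against 234 to 479.6 in the other families. Other genes of that lineage did not follow PAX8. WT1 was at 0.999 to 4.79 CPM throughout. MUC16 was at or under 0.296 CPM in both HeyA8 lines and SKOV3_TR, at 0.926 to 2.35 in the OV2008 family and at 8.76 and 10.9 in SKOV3. One library stood apart: among 57 genes at least 8-fold higher in HeyA8_MDR than in HeyA8 with vehicle, the HeyA8 QC library lay a median 68.5% of the way to HeyA8_MDR, and for 106 genes at least 8-fold lower it lay 23.7% of the way. These positions are on the log2 CPM scale, so they are not shares of RNA, and the higher and lower sets are not directly comparable. The corresponding positions were 0% and 2.48% for the SKOV3 QC library and 8.53% and 10.1% for the OV2008 QC library. The HeyA8_MDR QC library lay 86.5% and 83.4% of the way from HeyA8 to its own line, against 96.3% to 100.5% for the QC libraries of SKOV3_TR and OV2008_C13. Whether the HeyA8 QC library holds RNA of both lines of the pair was not tested. Of the 9 genes, 5 lay above both vehicle levels of the HeyA8 pair in that library, 3 lay below both and 1, CASP8, lay between them. Effects printed for the 9 genes over all lines, in sensitive lines, in the difference and in the SKOV3 family contrast are therefore also given without HeyA8. The same holds for the sign-flip tests over lines, and for genes of the wider pathway where they passed a threshold. The resistant-line fits, which share their spread with that library, and the label permutation are not given without it. In bulk RNA fewer cells of a kind and less RNA per cell cannot be told apart.

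The proximal promoters of FAS and TNFSF10 are shown because FAS was higher with QC in most lines while TNFSF10 was lower in the sensitive lines. Both come from RefSeq on GRCh38.p14 and hold the 250 bases before the transcription start, read 5′ to 3′ on the gene's strand, at chr10:88990548-88990797 (plus strand, the first of 3 listed for FAS) and chr3:172523431-172523680 (minus strand). Capitals mark motif letters found on either strand.
FAS: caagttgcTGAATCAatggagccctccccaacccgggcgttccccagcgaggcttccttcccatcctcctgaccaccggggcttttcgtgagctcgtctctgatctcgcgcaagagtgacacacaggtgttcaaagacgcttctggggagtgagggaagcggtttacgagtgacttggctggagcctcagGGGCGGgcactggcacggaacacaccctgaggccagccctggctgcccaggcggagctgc
TNFSF10: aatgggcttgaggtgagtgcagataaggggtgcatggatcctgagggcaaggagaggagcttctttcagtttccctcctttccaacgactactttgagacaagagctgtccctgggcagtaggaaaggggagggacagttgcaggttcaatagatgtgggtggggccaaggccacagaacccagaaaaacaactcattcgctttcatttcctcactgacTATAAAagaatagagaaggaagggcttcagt
The FAS window held 1 AP-1 match (TGANTCA) and 1 GC box (GGGCGG), motifs found in 6.573% and 42.639% of 35116 promoter windows of the same length. The TNFSF10 window held 1 TATA box (TATAAA), found in 10.716% of windows. Neither window held the p53 half-site or NF-kB site consensus, which 5.573% and 9.961% of windows held, and the matches in these windows did not overlap each other. No match says only that these letters are not in the window. Of the 9 genes, 6 had a window in this table, and TNFRSF10A, TNFRSF10B and TNFRSF10D did not.

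CPM divides a gene's counts by a library size adjusted for composition (TMM), and a change is the log2 ratio of QC to vehicle in 1 line with a prior count of 2. Without drug, TNFRSF10B stood highest per kilobase of transcript, with a median of 76.2 CPM per kb over the 6 lines and a range of 31.5 to 103. The next medians were 15.6 for CASP8, 11.6 for FADD, 11.6 for TNFRSF10A, 10.3 for TNFRSF10D, 7.94 for FAS and 7.63 for XIAP, and the ranges of these neighbours overlapped. TNFSF10 was at 0.514 CPM per kb, and CFLAR was at 4.00 on a 14612-base transcript, a value that depends on the isoform because another main isoform has 2128 bases. The lengths behind XIAP and CASP8 were 8558 and 2659 bases, against 3735 and 1629 for another isoform of each, so the order below TNFRSF10B also depends on the isoform. TNFRSF10D had the widest spread, from 0.0565 to 109 CPM per kb.

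**Figure D1:**
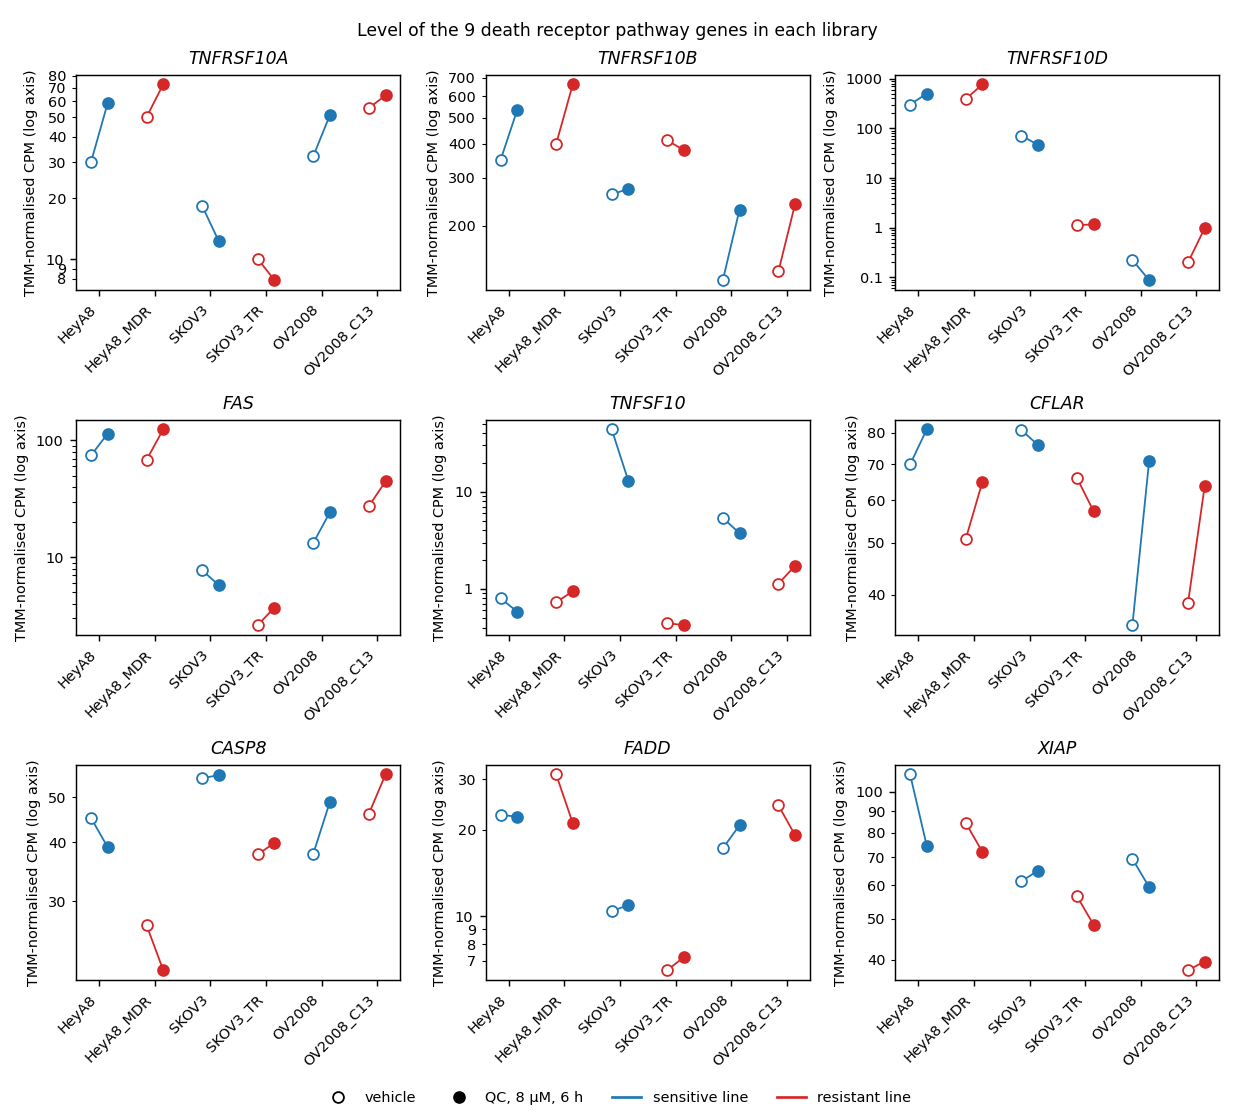
TMM-normalised CPM on log axes for the 9 genes in each of the 12 libraries, with open circles for vehicle, filled circles for QC and a line joining the pair of libraries of each cell line (blue sensitive, red resistant). TNFRSF10B and FAS ran upward in 5 of 6 lines, and TNFSF10 was above 40 CPM with vehicle in SKOV3 alone among the vehicle libraries.

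TNFRSF10B, the main TRAIL death receptor here by level, was higher with QC in 5 of the 6 lines. Vehicle levels were 349, 400, 261, 412, 126 and 136 CPM in HeyA8, HeyA8_MDR, SKOV3, SKOV3_TR, OV2008 and OV2008_C13, and QC levels were 533, 663, 273, 380, 229 and 241 CPM in the same order. Both HeyA8 lines and both OV2008 lines were higher by 0.61 to 0.86 on the log2 scale, a fold of 1.53 to 1.82. The SKOV3 lines stayed near their vehicle levels, at 0.07 in SKOV3 and −0.12 in SKOV3_TR. Group means ± SD over 3 lines were 245 ± 112 CPM with vehicle and 345 ± 164 CPM with QC in sensitive lines, and 316 ± 156 and 428 ± 215 CPM in resistant lines, so the spread between lines was larger than the difference within them.

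TNFRSF10A, the other signalling TRAIL receptor, divided along the families. With vehicle it was at 30.05, 50.1, 18.3, 10.04, 32.2 and 55.6 CPM in the line order used for TNFRSF10B, and with QC at 58.7, 72.7, 12.3, 7.90, 51.4 and 64.1 CPM. The 4 lines of the HeyA8 and OV2008 families were higher with QC, by 0.96, 0.54, 0.67 and 0.21, and SKOV3 and SKOV3_TR were lower, by −0.58 and −0.34. All 4 SKOV3-family libraries lay below the other 8.

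TNFRSF10D, the decoy, was highest in the HeyA8 family. It stood at 302 and 386 CPM with vehicle and 501 and 770 CPM with QC in HeyA8 and HeyA8_MDR. SKOV3 had 71.4 CPM with vehicle and 46.6 with QC, and SKOV3_TR had 1.12 and 1.17 CPM. In the OV2008 family the raw counts were 4 with vehicle and 2 with QC in OV2008, and 6 and 26 in OV2008_C13, so its log2 ratio there, 1.90 in OV2008_C13, rested on few reads. The changes of 0.73 and 0.9985 in the HeyA8 lines rested on 6813 to 13700 counts. TNFRSF10D is closely related in sequence to its neighbour TNFRSF10C, and how the counting split reads common to both is not given in the sources used here.

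FAS, the receptor for FAS ligand, was higher with QC in 5 of the 6 lines. Its vehicle levels were 74.3, 68.2, 7.74, 2.63, 13.3 and 27.4 CPM, and its QC levels were 114, 124, 5.77, 3.71, 24.3 and 44.6 CPM. SKOV3 was the exception, with −0.42 on 185 and 127 counts, and the other lines lay between 0.48 and 0.87. HeyA8, HeyA8_MDR, OV2008 and OV2008_C13 had 1.54-, 1.82-, 1.83- and 1.62-fold more FAS with QC. FAS overlaps ACTA2 on the other strand in the annotation, and TNFRSF10B overlaps RHOBTB2, and the strand setting of the counting is not given in the sources used here, so reads of the overlaps could not be assigned.

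TNFSF10, the gene of the ligand TRAIL, was scarce outside SKOV3. SKOV3 had 44.01 CPM with vehicle and 12.9 CPM with QC, from 1052 to 285 counts, a change of −1.76 or 0.295-fold. OV2008 had 5.38 and 3.75 CPM and OV2008_C13 had 1.13 and 1.73 CPM. The HeyA8 lines and SKOV3_TR had 8 to 18 counts per library, and their changes of −0.40, 0.35 and −0.05 are of that precision. All 3 sensitive lines were lower with QC, while HeyA8_MDR and OV2008_C13 were higher and SKOV3_TR was close to its vehicle level.

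CFLAR, the inhibitor at the receptor, had its highest log2 ratios in the OV2008 family. It went from 35.2 to 70.9 CPM in OV2008 and from 38.6 to 63.7 CPM in OV2008_C13, changes of 1.01 and 0.72. HeyA8 went from 69.9 to 81.2 CPM and HeyA8_MDR from 50.7 to 64.8 CPM, changes of 0.22 and 0.35. SKOV3 went from 81.0 to 75.9 CPM and SKOV3_TR from 66.0 to 57.3 CPM, changes of −0.09 and −0.21. The 6 QC libraries lay between 57.3 and 81.2 CPM, a narrower span than the 35.2 to 81.0 CPM of the vehicle libraries.

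CASP8 and FADD, which CFLAR joins in the same complex, differed less between vehicle and QC. CASP8 had vehicle levels of 45.1, 26.6, 54.8, 37.7, 37.9 and 46.1 CPM and QC levels of 39.1, 21.4, 55.7, 39.9, 48.9 and 55.9 CPM. Its changes were negative in both HeyA8 lines, at −0.21 and −0.32, and positive in both OV2008 lines, at 0.37 and 0.28. FADD had vehicle levels of 22.5, 31.2, 10.4, 6.50, 17.3 and 24.3 CPM and QC levels of 22.2, 21.1, 10.9, 7.21, 20.7 and 19.1 CPM. For FADD 3 lines were higher and 3 lower, the lowest change being −0.56 in HeyA8_MDR.

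XIAP, which acts on the caspases downstream, had vehicle levels of 110, 84.4, 61.3, 56.6, 69.3 and 37.7 CPM and QC levels of 74.4, 72.0, 64.9, 48.4, 59.4 and 39.6 CPM. It was lower with QC in 4 of 6 lines, by −0.56 in HeyA8 and by −0.22 to −0.23 in HeyA8_MDR, SKOV3_TR and OV2008. SKOV3 and OV2008_C13 were at 0.08 and 0.07.

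**Figure D2:**
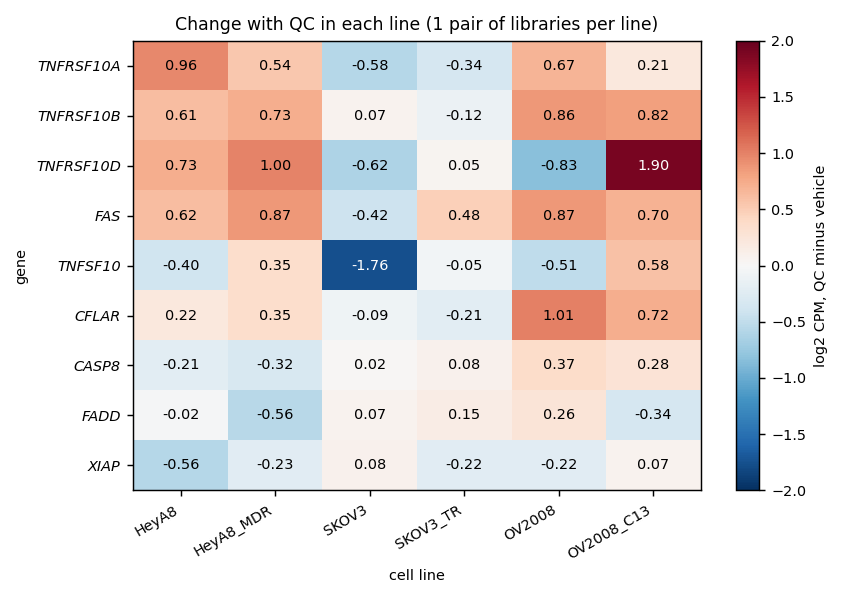
Heat map of the log2 ratio of QC to vehicle CPM for the 9 genes (rows) in the 6 lines (columns), 1 pair of libraries per line, red for higher and blue for lower with QC. The receptor rows are red in the HeyA8 lines, TNFRSF10B and FAS are red in both OV2008 lines, and the lowest value is −1.76 for TNFSF10 in SKOV3.

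Whether QC changed these genes in common to all lines was tested over the 6 lines with a term for each line. TNFRSF10B and FAS were the members with the smallest p, both higher with QC: 0.50 (SE 0.150) for TNFRSF10B and 0.55 (SE 0.166) for FAS on the log2 scale. By edgeR's quasi-likelihood test both had a Benjamini-Hochberg adjusted p of 0.180 over the 18720 genes, and their unadjusted p lay under 0.05. Hence 2 of 9 genes had an unadjusted p under 0.05, the threshold the study names, beside 15.2% of all genes tested, and 0 passed an adjusted p of 0.05, as did 0% of all genes. The median change of the 9 was 0.26 against 0.0001 over all genes.

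A direction count on the same line changes gave the same pair, which is no separate evidence. TNFRSF10B and FAS, 2 of 9, were higher with QC in at least 5 of the 6 lines, a pattern of 16% of all genes, and 0 of 9 were lower in 6 of 6 lines, a pattern of 4.6%. Exact sign-flip tests over the 6 line changes, in which the smallest two-sided p is 0.03125, gave 0.0625 for FAS and 0.09375 for TNFRSF10B, and each was 0.3125 after adjustment over 10 such tests. These tests, like the edgeR fit over the 6 lines, treat the partners of a family as independent. With the mean of each of the 3 families as the unit, where the smallest two-sided p is 0.25, exact sign-flip tests gave 0.25 for FAS and 0.5 for TNFRSF10B. Over the 5 lines without HeyA8, where the smallest is 0.0625, they gave 0.125 for FAS and 0.1875 for TNFRSF10B, each higher in 4 of these lines. Without HeyA8 the fitted values were 0.47 for TNFRSF10B and 0.53 for FAS, still with an unadjusted p under 0.05. Without both HeyA8 lines they were 0.40 and 0.42, and 0 of 9 genes passed that threshold. Leaving out SKOV3 instead gave 5 of 9 genes, and leaving out SKOV3_TR gave 3.

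The other members did not pass over the 6 lines. CFLAR was nearest, at 0.33 (SE 0.159, adjusted p = 0.349), followed by TNFRSF10D at 0.45 (SE 0.276) and XIAP at −0.18 (SE 0.118). TNFRSF10A was at 0.26 (SE 0.192) and at −0.0066 without both HeyA8 lines. TNFSF10 was at −0.42 (SE 0.319), CASP8 at 0.04 (SE 0.126) and FADD at −0.08 (SE 0.151). Without HeyA8 these 7 genes again did not pass, at 0.35 for CFLAR, 0.35 for TNFRSF10D, −0.11 for XIAP, 0.11 for TNFRSF10A, −0.44 for TNFSF10, 0.0896 for CASP8 and −0.0904 for FADD.

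**Figure D3:**
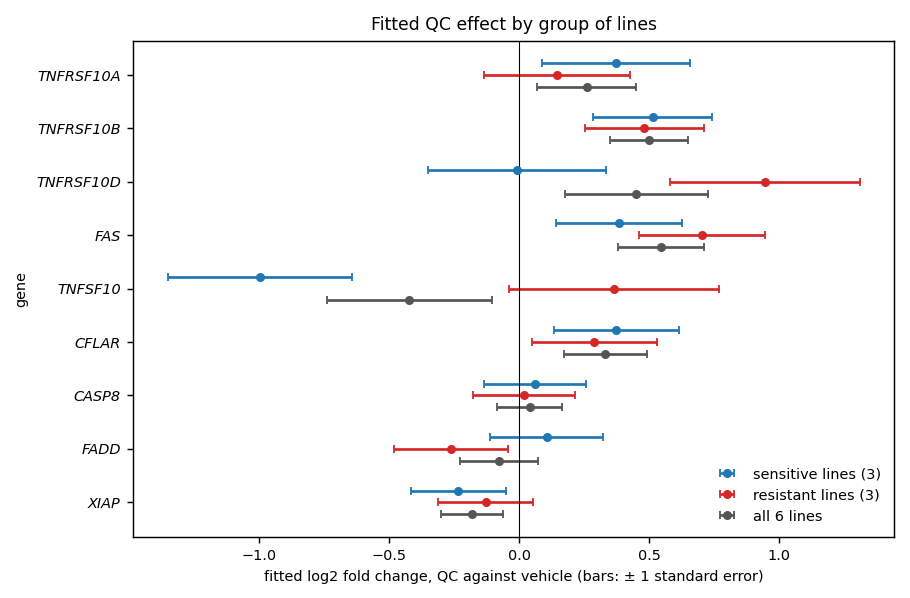
Fitted log2 fold change of QC against vehicle for the 9 genes in the 3 sensitive lines (blue), the 3 resistant lines (red) and all 6 lines (grey), with bars of 1 standard error to each side. TNFRSF10B lies near 0.5 in all 3 fits, while the sensitive and resistant points of TNFSF10 lie on opposite sides of 0.

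In the sensitive lines TNFRSF10B was higher and TNFSF10 lower with QC. TNFRSF10B was at 0.51 (SE 0.229, adjusted p = 0.739) and TNFSF10 at −0.997 (SE 0.354, adjusted p = 0.677). These were 2 of 9 genes with an unadjusted p under 0.05, beside 6.59% of all genes tested. Without HeyA8 TNFRSF10B was 0.46 and no longer passed, and TNFSF10 was −1.18 and passed. TNFSF10 rested on SKOV3, since without that line it was −0.50 and did not pass. TNFRSF10B also did not pass without OV2008, at 0.34, or with HeyA8_MDR left out of the shared spread, at 0.50. With scaling to RPLP0 TNFSF10 was −0.69 and did not pass, and without SKOV3 3 of 9 genes passed in all.

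In the resistant lines the higher genes were FAS and the decoy TNFRSF10D. FAS was at 0.70 (SE 0.242) and TNFRSF10D at 0.94 (SE 0.366), each with an adjusted p of 0.816. TNFRSF10B was at 0.48 (SE 0.230, adjusted p = 0.818), close to its value in sensitive lines. The pair made up 2 of 9 genes, beside 6.03% of all genes. Neither passed without HeyA8_MDR, where FAS was 0.60 and TNFRSF10D 0.86, and TNFRSF10D did not pass without OV2008_C13, at 0.68, while 3 of 9 genes passed without SKOV3_TR.

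The study asked whether resistant lines respond differently, and the difference between the groups was tested for each gene. TNFSF10 was the 1 of 9 genes past an unadjusted p of 0.05, beside 1.16% of all genes, with an effect 1.36 (SE 0.537) higher on the log2 scale in resistant lines (adjusted p = 0.9998). The 3 resistant changes of TNFSF10 lay above the 3 sensitive ones, and an exact permutation of the resistance labels gave a two-sided p of 0.1, the smallest that 3 against 3 lines allow. In HeyA8, HeyA8_MDR and SKOV3_TR these changes rested on 8 to 18 counts per library, so their order, on which that p depends, is uncertain. Without SKOV3 the difference was 0.85, without HeyA8_MDR 1.36 and without OV2008_C13 1.18, and it did not pass in these 3 fits. Without HeyA8 it was 1.55 and passed, with the family as the unit it was 1.22 and passed, and scaled to RPLP0 it was 1.19 and did not.

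For TNFRSF10B the difference was −0.03 (SE 0.324), and for CFLAR it was −0.08 (SE 0.339), standard errors that leave room for differences of either sign. TNFRSF10D differed by 0.95 (SE 0.508) and did not pass, and by 1.62 without HeyA8, where its unadjusted p was under 0.05, on the few reads of the OV2008 family. FAS differed by 0.32 (SE 0.341), FADD by −0.37 (SE 0.310), TNFRSF10A by −0.23 (SE 0.400), XIAP by 0.11 (SE 0.259) and CASP8 by −0.04 (SE 0.276). Without HeyA8 the 7 differences other than those of TNFSF10 and TNFRSF10D did not pass either, and 3 of them changed sign: TNFRSF10B was 0.0201, TNFRSF10A 0.0897 and XIAP −0.0566. The others were −0.16 for CFLAR, 0.46 for FAS, −0.43 for FADD and −0.17 for CASP8.

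Before drug, no shift between sensitive and resistant lines common to the families was detected in the 9 genes. Differences within a single pair could not be tested, since no line had replicate libraries. By edgeR on the 6 vehicle libraries with the family as a term, 0 of 9 genes had an unadjusted p under 0.05, beside 3.77% of 16091 genes, and 0% of genes passed after adjustment. TNFSF10 had the lowest p at −2.82 (SE 1.42, adjusted p = 0.975), from the 44.01 CPM of SKOV3 against 0.443 CPM of SKOV3_TR. TNFRSF10D was at −1.82 (SE 1.59), from 71.4 against 1.12 CPM in that family. The remaining 7 genes lay between −0.45 for XIAP and 0.33 for TNFRSF10B, and the fit left 2 residual degrees of freedom.

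For TNFRSF10A, TNFRSF10B, FAS and CFLAR both SKOV3-family changes lay below those of the other 4 lines, although FAS was higher with QC in SKOV3_TR. The SKOV3 family was set against the others in a fit chosen after the values were seen. Here 5 of 9 genes had an unadjusted p under 0.05, beside 7% of all genes, and 0% of genes passed after adjustment. The QC effect was lower in the SKOV3 family by −1.06 (SE 0.276) for TNFRSF10A, −0.78 (SE 0.231) for TNFRSF10B, −1.35 (SE 0.427) for TNFRSF10D, −0.76 (SE 0.297) for FAS and −0.72 (SE 0.268) for CFLAR. The smallest adjusted p was 0.539, for TNFRSF10A, and since the families were picked on these values the p-values are no independent evidence. The fit also treated SKOV3 and SKOV3_TR, partners of the same family, as independent. Its standard errors and p-values therefore do not measure the spread between families. Without HeyA8, 6 of 9 genes passed, and these 5 values were −0.93, −0.83, −1.51, −0.81 and −0.84 in the same order. Without SKOV3, 2 passed, and FAS was then at −0.31. TNFRSF10B did not pass without SKOV3_TR (−0.70), TNFRSF10D did not without SKOV3 (−0.94), and CFLAR did not without SKOV3, SKOV3_TR or OV2008 (−0.82, −0.68 and −0.58).

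Receptors and a regulator shared a direction in the HeyA8 and OV2008 families. TNFRSF10A, TNFRSF10B, FAS and CFLAR, 4 of 9 genes, were higher with QC in each of these 4 lines, as were 12.3% of all genes tested. These families were set apart from SKOV3 after the values were seen, so the comparison with that share is no independent evidence. Mean changes in the HeyA8, OV2008 and SKOV3 families were 0.67, 0.84 and −0.03 for TNFRSF10B, 0.74, 0.79 and 0.03 for FAS, 0.75, 0.44 and −0.46 for TNFRSF10A and 0.28, 0.86 and −0.15 for CFLAR. CASP8 was at −0.26 in the HeyA8 and 0.32 in the OV2008 family.

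The balance of CFLAR to CASP8 was taken as a ratio of raw counts within each library, which needs no scaling between libraries. It was 1.55, 1.90, 1.48, 1.75, 0.929 and 0.839 with vehicle and 2.08, 3.03, 1.36, 1.43, 1.45 and 1.14 with QC, in the line order used for TNFRSF10B. OV2008 and OV2008_C13 crossed from fewer to more CFLAR than CASP8 counts. Counts were not divided by transcript length, which differs between the genes and their isoforms. Equal counts therefore do not mean equal transcript levels, and only the changes within a line are read here. Ratios were higher with QC in the 4 lines of the HeyA8 and OV2008 families, by 0.42 to 0.67 on the log2 scale, and lower in SKOV3 and SKOV3_TR, by −0.11 and −0.29. An exact sign-flip test over the 6 lines gave p = 0.125, so the shift was not distinguished from the spread between lines, and this ratio was chosen after the values were seen. Exact sign-flip tests gave p = 0.5 over the 3 family means and p = 0.25 over the 5 lines without HeyA8.

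**Figure D4:**
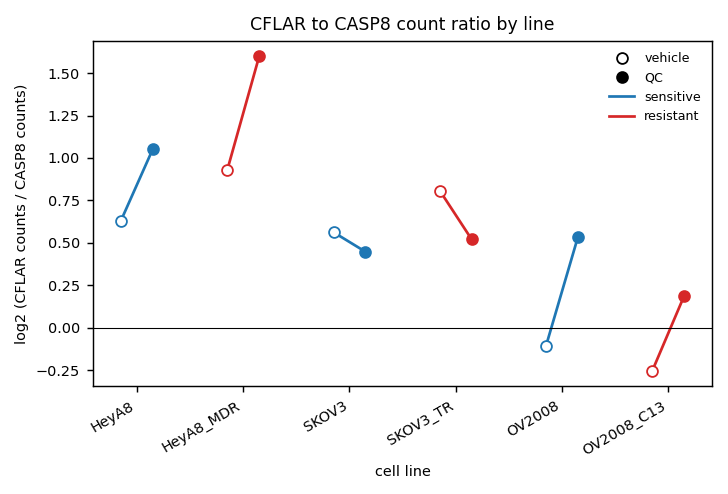
Log2 ratio of CFLAR to CASP8 counts in each line with vehicle (open circles) and QC (filled circles), blue for sensitive and red for resistant lines. Both OV2008 lines start below the 0 line and end above it, and both SKOV3 lines slope downward. The 0 line marks equal counts, not equal transcript levels.

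The wider pathway was read from 34 further genes, of which 28 were tested. Over the 6 lines 4 of 28 had an unadjusted p under 0.05, beside the 15.2% of all genes, and their median change was 0.01. CASP10, a caspase close to CASP8, was lower at −0.56 (SE 0.184, adjusted p = 0.198). TRADD, an adaptor of TNF receptors, was lower at −0.41 (SE 0.141, adjusted p = 0.213). Both were lower with QC in 6 of 6 lines, from −0.08 to −0.95 for CASP10 and from −0.22 to −0.63 for TRADD, a pattern of 4.6% of all genes. Without HeyA8 they were −0.48 and −0.41, still with an unadjusted p under 0.05. Scaled to RPLP0 they were −0.37 and −0.22 and did not pass.

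FAIM, an inhibitor of FAS-induced death, was higher at 0.46 (SE 0.200), and BIRC2, the ubiquitin ligase cIAP1, at 0.44 (SE 0.162). BIRC2 reached 1.23 and 0.79 in OV2008 and OV2008_C13. It lay between −0.13 and 0.33 in the other 4 lines. FAIM varied from −0.24 in SKOV3_TR, a line with under 0.3 CPM of it, to 1.28 in HeyA8_MDR. Adjusted p-values were 0.300 for FAIM and 0.233 for BIRC2. BIRC2 did not pass without OV2008 (0.29) or OV2008_C13 (0.36), while without HeyA8 both passed, at 0.55 for BIRC2 and 0.59 for FAIM. FAIM did not pass without HeyA8_MDR (0.27), SKOV3 (0.40) or OV2008 (0.43).

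In the sensitive lines CASP10 alone of the 28 had an unadjusted p under 0.05, at −0.72 (SE 0.278, adjusted p = 0.715), beside 6.59% of all genes, and without HeyA8 it was −0.60 and did not pass. In the resistant lines and in the difference between the groups 0 of 28 did, beside 6.03% and 1.16% of all genes. With vehicle the deubiquitinase CYLD, at −0.86 (SE 0.343, adjusted p = 0.975) in resistant against sensitive lines, had an unadjusted p under 0.05, beside 3.77% of all genes. CYLD was lower in each resistant line than in its partner, at 30.7 against 63.5, 23.4 against 57.6 and 28.2 against 33.9 CPM. The ligands FASLG and TNF, the soluble decoy TNFRSF6B, the necroptosis kinase RIPK3, XAF1 and RNF31 were below the filter and were not tested.

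**Figure D5:**
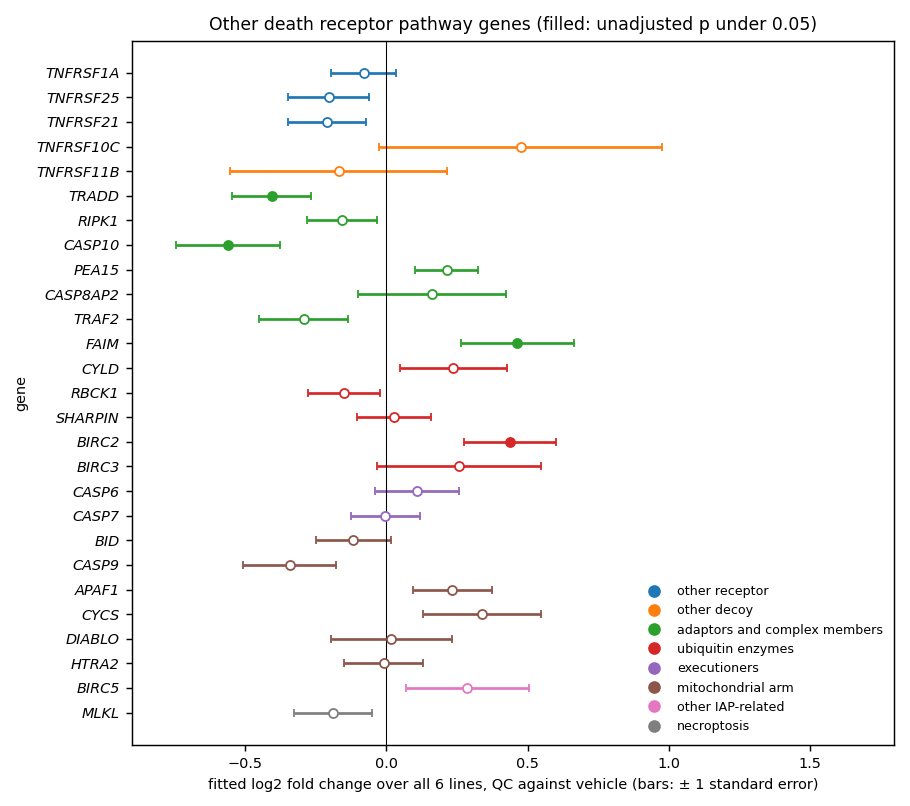
Fitted log2 fold change of QC against vehicle over all 6 lines for 27 of the 28 tested genes of the wider pathway, coloured by role, with bars of 1 standard error to each side and filled points for an unadjusted p under 0.05. CASP10 and TRADD lie left of 0, and FAIM and BIRC2 lie right of it.

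Stress and signalling genes known from the same pathways were read alongside. CDKN1A, a p53 target, had log2 ratios of 0.73, 0.10, 0.80, −0.15, 2.30 and 1.69 in the line order used for TNFRSF10B. DDIT3 had 0.48, 0.44, 1.03, −0.57, 1.08 and 0.98, and the NF-kB target TNFAIP3 had 1.61, 1.36, −0.84, 0.52, 1.61 and 0.34. In SKOV3 the ratios of CDKN1A and DDIT3 were positive and that of TNFAIP3 negative, while TNFRSF10A and FAS were lower and TNFRSF10B was near its vehicle level. In SKOV3_TR the ratios of CDKN1A and DDIT3 were negative, as were those of TNFRSF10A and TNFRSF10B, while those of TNFAIP3 and FAS were positive. Over the 6 lines CDKN1A was at 0.91 (SE 0.273), DDIT3 at 0.58 (SE 0.195), TNFAIP3 at 0.79 (SE 0.280), ATF4 at −0.39 (SE 0.156) and NFKBIA at −0.15 (SE 0.151), with adjusted p-values from 0.180 for CDKN1A to 0.671 for NFKBIA. Their part in the receptor values was not tested.

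Across the 12 libraries the levels of the members were compared with all tested genes, as a description in which the libraries share lines and families. TNFRSF10D was closest to FLI1 (Pearson's r of log2 CPM 0.989) and FBN1 (0.985). FAS was closest to C1orf52 (0.985) and TPP2 (0.983), and TNFRSF10B to EXT1 (0.957) and RASSF8-AS1 (0.949). TNFSF10 was closest to MUC5AC (0.961) and MFAP5 (0.955), genes that followed its single high line. CFLAR had the lowest leading values, 0.894 with KAT2B and 0.889 with PINK1, and CASP8, FADD and XIAP lay closest to C12orf29 (0.954), HPS6 (0.975) and WNK1 (0.947).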

How the data were processed

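PolyA RNA libraries were made by the authors with a TruSeq kit, and the deposited values are raw counts per Ensembl gene, without normalization. The study's methods name TopHat, hg19 and HTSeq, whereas the submitters' processing notes list STAR 2.7.3a, HTSeq 0.6.1p1 and GRCh38.p13, so the build of the counts is uncertain and no gene coordinates are given for them. The strand setting is not given in the sources used here. Of 60669 IDs, 58620 were paired with a symbol, and the 2049 unpaired IDs (0.132% of counts) stayed in the tests.

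Tests were run in edgeR 4.0.16 (R 4.3.3), using filterByExpr for the 4 conditions (minimum count 10, minimum total 15), TMM scaling and a two-sided quasi-likelihood F test with Benjamini-Hochberg adjustment over all genes. The model held 6 line terms and separate QC effects for sensitive and resistant lines. Another model held 1 QC effect, and a model of the vehicle libraries held terms for family and resistance. Standard errors (SE) were derived as the absolute log2 fold change over the square root of its F statistic, so they are approximate. P-values of the fits with a QC effect measure the spread between lines and treat the partners of a family as independent, except where the family was the unit. Those of the vehicle fit measure the spread of the resistant against sensitive difference between families. In each fit the estimate of spread borrows from other genes. Vehicle and QC libraries pair by their shared line, and their deviations from the means of their groups correlated at 0.893 to 0.929 over 18720 genes.

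Named genes are the 9 members, pathway genes with an unadjusted p under 0.05 in the comparison given, 5 context genes, and the 2 tested genes most correlated with each member. For CASP8, FADD and XIAP only the first of these 2 is printed. A few genes chosen this way are not reported, although all tests and counts included them. Members and lists were chosen with earlier results of these data known. Alternatives were DESeq2 1.42.0, its size factors, library size alone, scaling to RPLP0 (the study's qPCR reference), other count filters, no line term, the libraries of 1 group only, the family as the unit and leaving out each line. The SKOV3 family contrast, the CFLAR to CASP8 ratio and the sign-flip tests over families or without HeyA8 were added after the data were seen. The direction count over the HeyA8 and OV2008 families used the same split as that contrast. Transcript lengths come from GENCODE, promoter windows from RefSeq. The edgeR fits with a QC effect were also run on simulated counts. These had the same dispersion for all genes and libraries drawn independently. Error rates under spread that differs by gene, or under a QC response common to partner lines, were therefore not tested.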

Additional observations from a re-analysis of the deposited data

Results flagged for a closer look

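The QC effect on TNFSF10 differed between resistant and sensitive lines by 1.36 on the log2 scale in the test of the difference itself (edgeR, adjusted p = 0.9998), higher in resistant lines, and it did not pass without SKOV3 (0.85). Counts of TNFSF10 were 8 to 18 per library in HeyA8, HeyA8_MDR and SKOV3_TR. In the contrast of the SKOV3 family with the other families, chosen after the values were seen, the QC effect was lower in the SKOV3 family by −1.06 for TNFRSF10A, −0.78 for TNFRSF10B, −1.35 for TNFRSF10D, −0.76 for FAS and −0.72 for CFLAR, each under 0.05 before adjustment, with adjusted p-values from 0.539 upward. The log2 ratio of CFLAR to CASP8 counts changed by a mean of −0.20 in the SKOV3 family, negative in both lines, against 0.54 in the other families, positive in all 4 lines. This difference in the ratio was not tested. The p-values of the SKOV3 family contrast treat the partner lines as independent and do not measure the spread between families.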

How the results depend on the processing

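Of 759 values of single genes under the alternatives, 717 kept their direction and 42 reversed. Pathway genes entered these values only in comparisons where their unadjusted p was under 0.05. CASP8, FADD and XIAP were left out for the SKOV3 family contrast, where their main values were 0.02, 0.28 and 0.17. The share that kept its direction holds for this selection only and may be higher than over all genes and comparisons. The counts of members with an unadjusted p under 0.05 moved as follows. In sensitive lines the 2 became 1 with DESeq2's size factors, with RPLP0 scaling and with a minimum of 10 counts per library (which removes TNFSF10 and TNFRSF10D), and 1 to 3 leaving out a line. In resistant lines the 2 became 3 with DESeq2 and without a filter, 1 with that minimum and 0 to 3 leaving out a line. Over all 6 lines the 2 became 4 without a filter, where 2 (TNFRSF10B, adjusted p = 0.0161 in a range of 0.0161 to 0.99998 over its alternatives, and FAS, 0.0401 in a range of 0.0401 to 0.99998) also passed after adjustment, 0 without both HeyA8 lines, and 2 to 5 leaving out a line. The 1 gene of the resistant minus sensitive difference became 0 with RPLP0 scaling or that minimum, 2 without a filter or without both HeyA8 lines, and 0 to 2 leaving out a line (2 without HeyA8 or SKOV3_TR). With vehicle the 0 became 1 with DESeq2 or RPLP0 scaling, 2 without a filter, and 0 to 1 leaving out a family (1 without the HeyA8 family). For the SKOV3 family contrast the 5 became 2 to 6 leaving out a line, and 1 gene passed after adjustment with DESeq2 (TNFRSF10B, 0.0377, the lowest of a range up to 1) and without a filter (TNFRSF10D, 0.0239, likewise). Without the line or family term (no replicate block) the counts were 0 in sensitive lines, resistant lines, all lines and the difference, and 1 with vehicle and in the SKOV3 family contrast.

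Over all genes, adjusted calls over the 6 lines were 0 in the main design, 518 with DESeq2 and 791 without a filter. RPLP0 scaling moved the median of all genes from near 0 to 0.29 in sensitive lines, 0.18 over all lines, −0.20 in the difference, −0.41 with vehicle and −0.13 in the SKOV3 family contrast. With it XIAP became 0.0416 and TNFRSF10D 0.168 in sensitive lines, FADD 0.11 and XIAP 0.0017 over all lines, XIAP −0.0800 in the difference, and TNFRSF10A −0.173, TNFRSF10B −0.0952 and FADD −0.310 with vehicle. Without the block TNFRSF10D became 0.55 in sensitive lines and 0.0739 with vehicle, FAS 0.0501 with vehicle and CASP8 0.0256 in the difference. CASP8 in resistant lines became −0.0145 with library size alone and −0.00027 without a filter. Without both HeyA8 lines TNFRSF10A became −0.0066 and FADD 0.0212 over all lines, and XIAP −0.0031 in the difference.

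Leaving out a line, or with vehicle a family, reversed these values, whose ranges were, in sensitive lines, −0.68 to 0.52 for TNFRSF10D and −0.0888 to 0.19 for CASP8, and in resistant lines −0.0738 to 0.39 for TNFRSF10A and −0.13 to 0.16 for CASP8. Over all lines they were −0.14 to 0.0078 for FADD and −0.0227 to 0.0950 for CASP8. In the difference they were −0.66 to 0.0897 for TNFRSF10A, −0.24 to 0.29 for TNFRSF10B, −0.0229 to 0.57 for FAS, −0.31 to 0.23 for CFLAR, −0.18 to 0.11 for CASP8 and −0.0566 to 0.28 for XIAP. With vehicle they were −0.0333 to 0.78 for TNFRSF10A, −3.78 to 0.26 for TNFRSF10D, −0.79 to 0.47 for FAS and −0.0876 to 0.50 for FADD. The causes were not tested. TNFSF10 outside SKOV3 and OV2008 and TNFRSF10D in the OV2008 family rest on few counts, and with 1 library per line no change within a line has an error of its own.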
